A study of Mus musculus with 6 samples.

Results

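The genes described here mark the inhibitory interneurons and the output neurons of the mouse retina. They were the 36 genes of a marker list, 16 for amacrine cells, 5 for horizontal cells and 15 for ganglion cells, and each was read on its probe set with the highest mean log2 signal. Of these 36 genes, 35 had a probe set under their symbol, out of 18193 genes with 1 on the array, and Pou4f2 was not analysed here. Mean signal was above the filter used for testing in 33 of the 35, and Neurod6 and Pou4f3 were below it. Each Affymetrix array measured RNA from 2 pooled whole retinas of mixed sex, taken at postnatal day 21. The 3 arrays labelled knockout came from ERRβ -/- mice of C57Bl/6 x Sv129 background, and the 3 wildtype arrays came from C57Bl/6 mice, so genotype and strain background differ together and cannot be told apart. The labels name no Cre or transgene, and nothing says that the pools were separate beyond the sample titles, so a p-value here reflects only how these pools vary. The comparison is of retinas labelled as lacking ERRβ with wildtype retinas, ERRβ being an orphan nuclear receptor encoded by Esrrb.

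Amacrine cells are interneurons of the inner retina that release GABA or glycine onto bipolar cells, ganglion cells and each other, and small subtypes also release acetylcholine or dopamine. Horizontal cells contact photoreceptor terminals in the outer retina and feed back onto them. Ganglion cells gather the signals of the inner retina and send them through the optic nerve, with their axons packed with neurofilaments. Each of these classes is a small part of a mouse retina, in which rods predominate. In bulk tissue, fewer cells of a class and less RNA per cell cannot be told apart.

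Signals were deposited on 2 scales, with trimmed means near 500 for replicates 1 and 2 of both groups and near 150 for replicate 3 of both groups. Log2 fold changes are labelled knockout minus wildtype over all 6 arrays, and the ± value is limma's standard error (SE, n = 3 per group), with this scaling batch as a block. Values within the arrays near 500 (n = 2 per group) and near 150 (1 array per group, with no replicate check) stand beside them. Esrrb itself was not lower in the labelled knockout arrays, with 3435, 4012 and 2397, against 2951, 2934 and 1771 in wildtype arrays 1, 2 and 3 (0.37 ± 0.082, adjusted p = 0.0529 in limma). The sources used here do not place its probe set relative to the deleted part, so this does not check the labels. RNA quality was read from the signal at the 3′ end of Actb over that at its 5′ end, which was 1.82, 1.66 and 1.67 in labelled knockout arrays and 1.83, 1.89 and 2.32 in wildtype arrays, while that of Gapdh ran from 0.712 to 0.779 without a split by group. The part of RNA quality in the results below was not tested.

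The markers of all 3 classes were readable in this tissue, and 27 of the 35 genes had signals above the array median on all 6 arrays. The exceptions were Neurod6, Chat, Slc5a7 and Th among amacrine markers, Onecut1 and Onecut2 among horizontal cell markers, and Pou4f3 and Opn4 among ganglion cell markers. Signals differ between probe sets for reasons of probe design, so no gene is ranked against another by level.

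**Figure D1:**
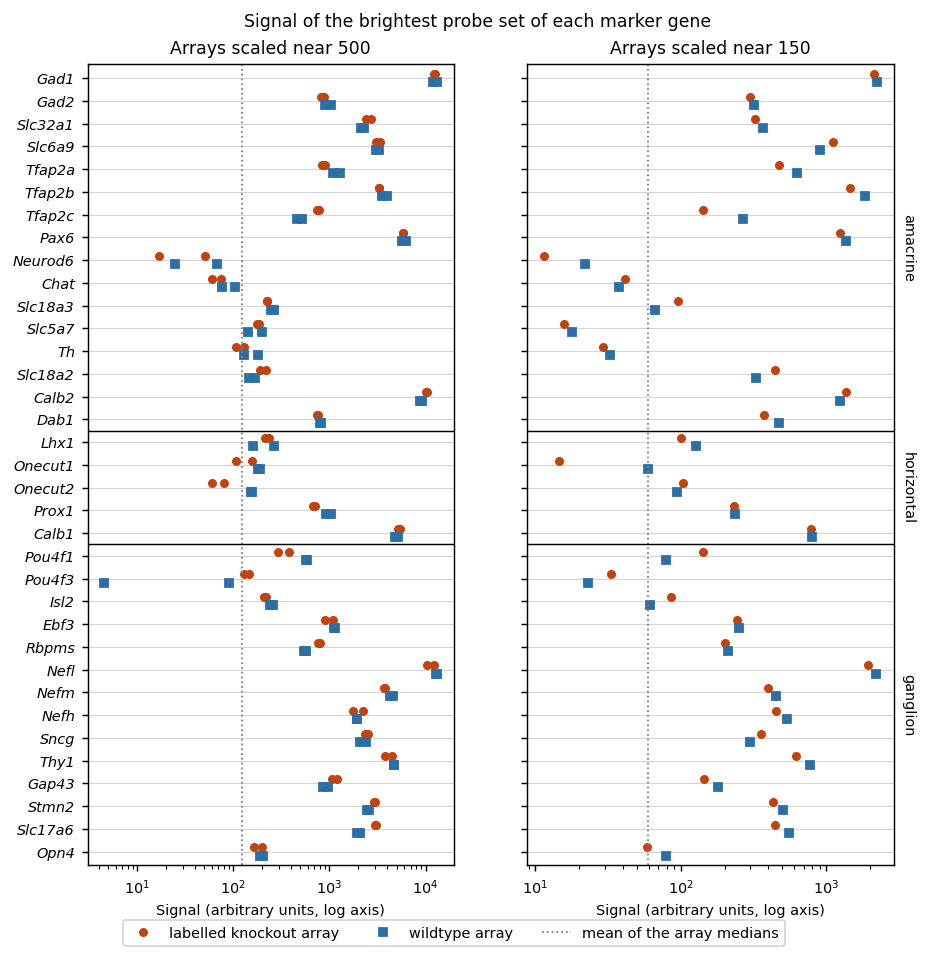
Signal of the brightest probe set of each of 35 marker genes on a log axis (arbitrary units), for arrays scaled near 500 at the left and near 150 at the right. Circles are labelled knockout arrays, squares wildtype arrays, 1 symbol per array, and the dotted line is the mean of the array medians. Signals of both groups lie close together for nearly every gene against the range between genes, and Pou4f3 has 1 wildtype array at 4.57.

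No marker of any of the 3 classes passed the test between labelled knockout and wildtype retinas. In limma with Benjamini-Hochberg adjustment over 27022 probe sets, 0 of 33 tested markers had an adjusted p under 0.05, where 2.25% of all tested probe sets did (609), 1.04% as higher and 1.22% as lower, or 2.75% of genes by their brightest probe set. With the replicate number as a block, 0 markers and 200 probe sets were called. At an unadjusted p under 0.05 there were 10 of 33 markers, or 30.3%, against 21.3% of all genes. The 95% interval of the change lay within 2-fold in either direction for 31 of the 33, the exceptions being Onecut1 and Onecut2, and within 0.5 on the log2 scale for 18 of 33. Among all genes those shares were 89.2% and 50.3%, against 93.9% and 54.5% of the markers. A p that misses the threshold does not show equal levels, and intervals of the named genes are therefore given.

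The horizontal cell markers had the class median furthest from that of all genes over the 6 arrays. The median log2 fold change was -0.05 over 16 amacrine markers (9 below 0), -0.33 over 5 horizontal cell markers (4 below 0) and -0.02 over 14 ganglion cell markers (7 below 0), and 0.01 over all genes, of which 48.9% were below 0. In the arrays near 500 the medians were -0.07, -0.49 and -0.05 in the same order of classes, with -0.00 for all genes. In the arrays near 150 they were -0.16, -0.02 and -0.19, with 0.04 for all genes. The horizontal cell median was thus further from 0 in the arrays near 500, and with the filter at the 60th percentile, which drops dim markers, it was -0.04 over all arrays. Among tested markers alone the medians were -0.02 for amacrine, -0.33 for horizontal and -0.06 for ganglion cells. With each array centred on its median they were 0.07, -0.24 and 0.03, so the sign turned for amacrine and ganglion cells, while the median of all tested genes was 0.12 with centring and 0.02 without.

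**Figure D2:**
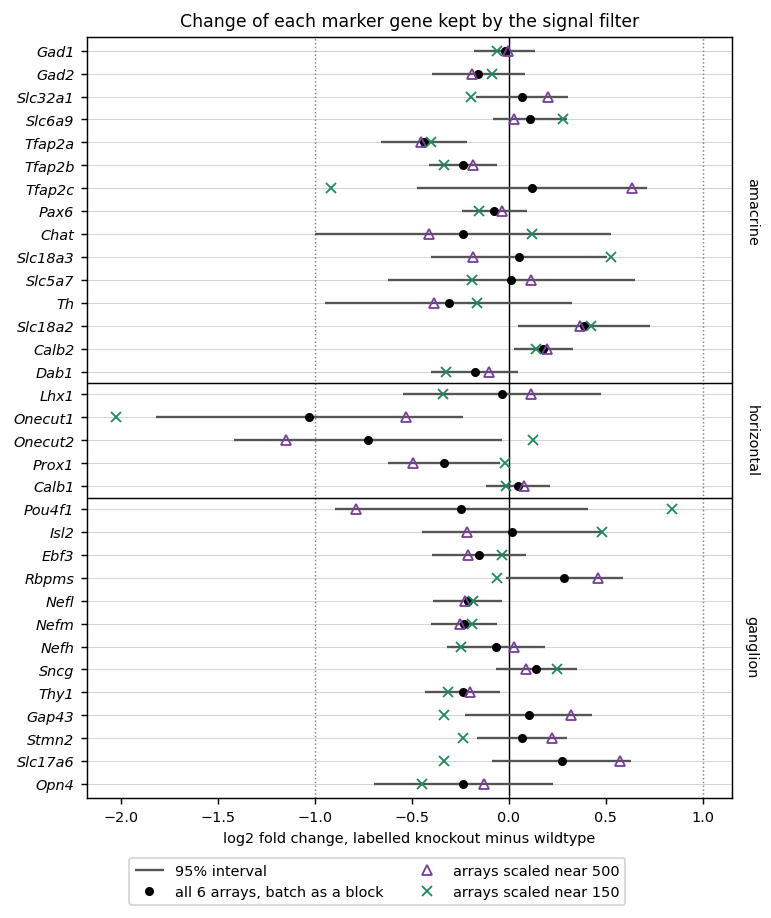
Log2 fold change, labelled knockout minus wildtype, of the 33 tested markers, grouped by class. Black circles with lines are the value over all 6 arrays with its 95% interval, triangles the arrays scaled near 500 and crosses those near 150, and dotted lines mark a 2-fold change. Tfap2a lies lowest among amacrine markers with all 3 symbols together. The triangle and the cross lie on opposite sides of 0 for Tfap2c, Pou4f1 and Slc17a6, and for a number of other markers.

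A second description asks whether the groups were apart in both sets of arrays, that is, whether both labelled knockout arrays near 500 lay on the same side of both wildtype arrays and the array pair near 150 differed the same way. Near 500 alone, the groups were apart for 24 of 35 markers (68.6%), where they were for 52.3% of all genes. Among genes above the signal filter, as nearly all of the markers were, that share was 59.1%. With both sets of arrays the groups were apart for 30.1% of all genes. Of the 12536 genes above the filter, 1946 were lower and 2476 higher in the labelled knockout arrays in both sets. By that rule 10 of 35 markers (28.6%) were lower in the labelled knockout arrays, where 13.8% of all genes were, and 3 of 35 (8.57%) were higher, where 16.3% were. The lower ones were Gad2, Tfap2a, Tfap2b and Dab1 of amacrine cells, Onecut1 and Prox1 of horizontal cells, and Ebf3, Nefl, Nefm and Thy1 of ganglion cells. Near 150 the log2 difference was only -0.02 for Prox1 and -0.04 for Ebf3. The other probe sets of Tfap2a and Tfap2b met the same rule. Not every other probe set of Gad2, Dab1, Ebf3, Nefl, Onecut1 and Prox1 did, so the count rests on the brightest ones. The higher ones were Slc18a2 and Calb2 of amacrine cells and Pou4f3, whose signal was under the filter.

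Transcription factors of amacrine cells held the smallest p of the list. Tfap2a, an AP-2 factor of developing amacrine and horizontal cells, read 902 and 834 in labelled knockout arrays and 1283 and 1101 in wildtype arrays near 500, and 476 against 629 near 150. All labelled knockout arrays were below the wildtype arrays of their scale. The log2 fold change was -0.44 ± 0.098 (95% interval -0.66 to -0.22), with -0.45 near 500 and -0.40 near 150, and an adjusted p of 0.0547 in limma, just over the threshold of 0.05. Its other 2 probe sets had -0.25 ± 0.10 and -0.34 ± 0.17 and were below wildtype in both sets of arrays. Tfap2a passed in the arrays near 500 alone (adjusted p = 0.0232), and with the filter at the 60th percentile, where 5.3% of probe sets were called. Over the alternatives run its lowest limma adjusted p was 0.0222, and it was 0.102 with the replicate number as a block. The highest was the same value for every tested marker, so it does not describe Tfap2a alone.

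Tfap2b, the second AP-2 factor of these cells, read 3265 and 3303 in labelled knockout arrays and 3945 and 3541 in wildtype arrays near 500, and 1465 against 1848 near 150. Its groups were also apart at each scale, with a log2 fold change of -0.24 ± 0.078 (95% interval -0.41 to -0.06, limma adjusted p = 0.14) and -0.30 ± 0.13 on its other probe set. Tfap2c, the third member of this family on the list, did not share that pattern. It read 781 and 742 in labelled knockout arrays and 524 and 457 in wildtype arrays near 500, but 141 against 266 near 150. The groups were apart in opposite directions at the 2 scales, with 0.64 and -0.91, and this difference between the sets of arrays passed its own test (1.55 on the log2 scale, limma adjusted p = 0.0142). The probe set read for Tfap2c has an _s_at name, which marks probes shared by more than 1 transcript, and AP-2 genes are similar in sequence. Binding of one gene's RNA to another's probes was not tested.

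Stretches upstream of the start sites of Tfap2a, Tfap2b and Slc18a2 are shown because these were, among markers apart in both sets of arrays, 2 lower genes of one family and the higher gene that had a sequence in the table used. Each holds the 250 bases before a start, 5′ to 3′ on the gene's strand, from RefSeq on GRCm38.p6. GGTCA, which is part of the core half-site of nuclear receptors and not the whole of it, is in capitals on either strand (TGACC is the reverse of GGTCA). The stretches are chr13:40734921-40735170 (minus strand) and chr13:40733796-40734045 (minus strand) for 2 starts of Tfap2a, chr1:19211804-19212053 (plus strand) for Tfap2b and chr19:59260628-59260877 (plus strand) for Slc18a2.
Tfap2a, upstream start: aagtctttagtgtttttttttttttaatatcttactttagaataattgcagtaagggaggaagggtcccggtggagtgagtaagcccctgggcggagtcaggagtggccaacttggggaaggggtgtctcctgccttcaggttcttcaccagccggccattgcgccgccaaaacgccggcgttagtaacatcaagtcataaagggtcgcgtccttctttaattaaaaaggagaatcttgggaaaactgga
Tfap2a, downstream start: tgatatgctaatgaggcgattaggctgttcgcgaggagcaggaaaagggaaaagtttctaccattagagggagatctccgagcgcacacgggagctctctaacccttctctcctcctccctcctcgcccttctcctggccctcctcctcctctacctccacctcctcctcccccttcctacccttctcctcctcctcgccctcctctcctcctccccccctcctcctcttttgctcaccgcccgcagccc
Tfap2b: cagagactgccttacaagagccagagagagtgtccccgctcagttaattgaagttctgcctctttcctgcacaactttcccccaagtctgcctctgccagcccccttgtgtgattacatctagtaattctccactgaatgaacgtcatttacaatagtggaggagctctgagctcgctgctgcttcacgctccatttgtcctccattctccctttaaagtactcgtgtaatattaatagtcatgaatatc
Slc18a2: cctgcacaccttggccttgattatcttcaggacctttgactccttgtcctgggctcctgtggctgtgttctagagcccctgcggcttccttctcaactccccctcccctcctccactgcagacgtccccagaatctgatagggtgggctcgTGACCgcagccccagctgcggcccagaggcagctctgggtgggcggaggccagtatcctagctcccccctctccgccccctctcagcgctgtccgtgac
The Slc18a2 stretch holds 1 GGTCA and the other 3 hold none. Of 24 markers with such a stretch in the table used, 8 (33.3%) held GGTCA on at least 1 strand, where 38.4% of all 27025 genes did. The longer AAGGTCA, part of the extended half-site that ERR receptors bind, includes the shorter motif. It was in 0 of the 31 stretches of these 24 markers and in 4.08% of all 32851 stretches. These matches describe letters in short stretches and say nothing of binding.

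Pax6, the paired-box factor of amacrine, horizontal and ganglion cells, gave one of the tightest measurements. It read 5772 and 5874 in labelled knockout arrays and 5704 and 6235 in wildtype arrays near 500, where the groups overlapped, and 1238 against 1376 near 150. The log2 fold change was -0.07 ± 0.074 (95% interval -0.24 to 0.09). Neurod6, a basic helix-loop-helix factor of an amacrine subtype that uses neither GABA nor glycine, was under the filter with signals of 11.5 to 67.8, and its groups overlapped near 500 (-0.63 ± 0.69, adjusted p = 0.745 in the fit of all probe sets).

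Genes of inhibitory transmission had changes from -0.16 to 0.11 on their brightest probe sets, and none passed. Gad1, which encodes a GABA-synthesising enzyme, read 12271 and 12668 in labelled knockout arrays and 11911 and 13079 in wildtype arrays near 500, and 2142 against 2233 near 150. The groups overlapped near 500, and the change was -0.02 ± 0.071 with a 95% interval of -0.18 to 0.14. Gad2, the second such enzyme, had -0.16 ± 0.11, the vesicular GABA and glycine transporter gene Slc32a1 had 0.07 ± 0.11, and the glycine transporter gene Slc6a9 had 0.11 ± 0.086. The intervals of all 4 lay within 0.5 on the log2 scale, as did those of 50.3% of all tested genes. At both scales, the brightest probe set of Gad2 was lower in the labelled knockout arrays and the second probe set of Slc6a9 was higher (0.22 ± 0.10). The second probe set of Gad2 had overlapping groups near 500.

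No marker of cholinergic or dopaminergic subtypes passed, and Chat, Slc5a7 and Th were not above the array median on every array. Starburst cells, which release acetylcholine and serve motion direction, are marked by Chat (the synthesising enzyme), Slc18a3 (its vesicular transporter, encoded inside the Chat gene) and Slc5a7 (choline uptake). Slc18a3 read 224 and 226 in labelled knockout arrays and 264 and 247 in wildtype arrays near 500, and 95.7 against 66.4 near 150. At each scale the groups were apart, but in opposite directions, and the change was 0.05 ± 0.20. Chat had -0.24 ± 0.34 and Slc5a7 0.01 ± 0.28. Th, the enzyme of dopamine synthesis, read 129 and 107 in labelled knockout arrays and 183 and 129 in wildtype arrays near 500, and 29.2 against 32.7 near 150, with -0.31 ± 0.28.

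Slc18a2, the vesicular monoamine transporter gene of dopaminergic cells, differed in the other direction from Th. It read 189 and 218 in labelled knockout arrays and 168 and 147 in wildtype arrays near 500, and 443 against 330 near 150. The groups were apart at both scales, with a log2 fold change of 0.39 ± 0.15 (95% interval 0.05 to 0.73, limma adjusted p = 0.194). Its signals were also higher near 150 than near 500, against the scale. The log2 ratio of the arrays near 500 to those near 150 was -1.10 for Slc18a2, outside the middle 95% of all genes (-0.64 to 3.37), the single marker of the 35 for which this held. Calb2, the calretinin gene of amacrine and some ganglion cells, read 10177 and 10452 in labelled knockout arrays and 9118 and 8857 in wildtype arrays near 500, and 1363 against 1237 near 150. It too was apart at both scales, with a small and tightly measured change of 0.18 ± 0.067 (95% interval 0.03 to 0.33, limma adjusted p = 0.178).

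Dab1, an adaptor of reelin signalling that marks AII amacrine cells, the relay of rod signals, read 762 and 744 in labelled knockout arrays and 795 and 819 in wildtype arrays near 500, and 376 against 470 near 150. The change was -0.17 ± 0.10 (limma adjusted p = 0.36). Its 5 tested probe sets ranged from -0.56 to -0.00, the lowest with limma adjusted p = 0.0701.

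Onecut1 and Onecut2, transcription factors of horizontal cells, had the changes furthest from 0 among the 33 tested markers, on low signals. Onecut1, which is needed for horizontal cells to form, read 106 and 157 in labelled knockout arrays and 182 and 192 in wildtype arrays near 500, and 14.6 against 59.4 near 150. The groups were apart at both scales, with -1.03 ± 0.35 (95% interval -1.82 to -0.24, limma adjusted p = 0.15). With 16 added to every signal the change was -0.75. The second probe set of Onecut1, under the filter, had -0.22 ± 0.45, with -0.48 near 500 and 0.30 near 150. Onecut2, its partner, read 79.4 and 60.6 in labelled knockout arrays and 152 and 156 in wildtype arrays near 500, but 103 against 94.3 near 150. Its change was -0.73 ± 0.31 (limma adjusted p = 0.225), and its 3 probe sets all lay between -0.73 and -0.46.

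Prox1, a homeobox factor of horizontal cells that AII amacrine, bipolar and lens cells also express, read 677 and 708 in labelled knockout arrays and 1037 and 914 in wildtype arrays near 500, and 234 against 237 near 150. Near 500 the groups were apart and near 150 they were level, with -0.33 ± 0.13 over all arrays (95% interval -0.62 to -0.05, limma adjusted p = 0.185). All 3 of its probe sets had this split, with -0.73 to -0.45 near 500 and -0.02 to 0.14 near 150. In the arrays near 500 alone Prox1 passed (-0.49 ± 0.12, limma adjusted p = 0.0185). Lhx1, the LIM factor that positions horizontal cells, had -0.04 ± 0.23 with overlapping groups near 500. Calb1, the calbindin gene of horizontal cells and some amacrine cells, read 5178 and 5445 in labelled knockout arrays and 4870 and 5182 in wildtype arrays near 500, and 787 against 794 near 150. Its groups overlapped near 500, and its change was 0.05 ± 0.074 (95% interval -0.12 to 0.21).

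**Figure D3:**
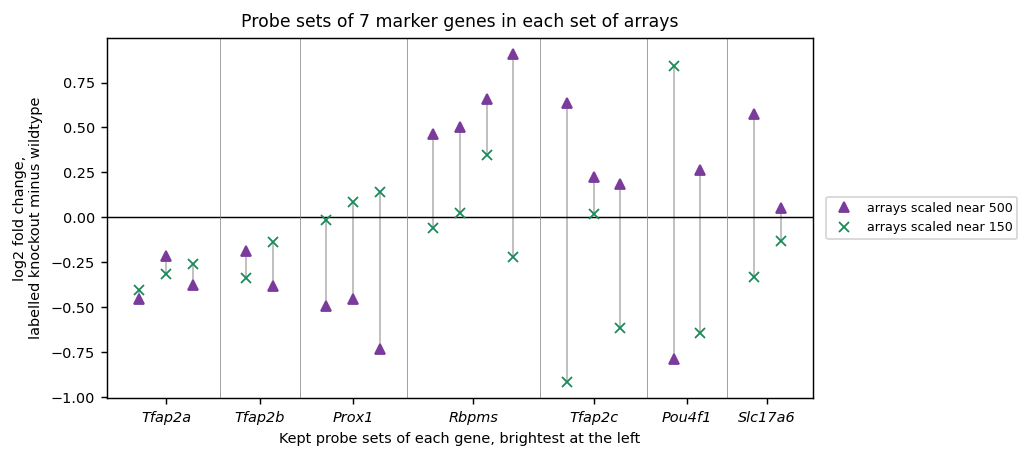
Log2 fold change, labelled knockout minus wildtype, of every tested probe set of 7 marker genes, with triangles for the arrays scaled near 500 and crosses for those near 150, brightest probe set at the left of each gene. All probe sets of Tfap2a and Tfap2b lie below 0 in both sets of arrays, those of Prox1 and Rbpms are away from 0 near 500, and the 2 probe sets of Pou4f1 have opposite signs within each set.

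Among ganglion cell markers, the brightest probe sets of Nefm, Nefl and Thy1 had lower signals in all labelled knockout arrays than in the wildtype arrays of their scale, and none passed. Nefm, the medium neurofilament subunit, read 3704 and 3766 in labelled knockout arrays and 4266 and 4633 in wildtype arrays near 500, and 400 against 455 near 150. Nefl, the light subunit, read 10325 and 12208 in labelled knockout arrays and 13275 and 12990 in wildtype arrays near 500, and 1933 against 2197 near 150. Both were apart at each scale, with -0.23 ± 0.076 for Nefm and -0.21 ± 0.080 for Nefl (limma adjusted p = 0.14 and 0.178). The second probe set of Nefl had -0.03, and Nefh, the heavy subunit, had -0.06 ± 0.11 with overlapping groups near 500. Thy1, a surface glycoprotein of ganglion cells, read 3780 and 4492 in labelled knockout arrays and 4734 and 4716 in wildtype arrays near 500, and 619 against 769 near 150. Its change was -0.24 ± 0.086 (95% interval -0.43 to -0.04, limma adjusted p = 0.169).

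Rbpms, an RNA-binding protein gene found across ganglion cell types, differed in the other direction near 500. It read 795 and 754 in labelled knockout arrays and 546 and 578 in wildtype arrays near 500, and 201 against 210 near 150. The groups were apart near 500 and close near 150, with 0.29 ± 0.13 over all arrays (95% interval -0.01 to 0.59, limma adjusted p = 0.267). Its 4 probe sets had 0.46 to 0.91 near 500 and -0.22 to 0.35 near 150, and in the arrays near 500 alone the probe set read here passed (limma adjusted p = 0.03). Pericytes and smooth muscle also express Rbpms, and the list of vessel genes had a median of 0.39 near 500 and 0.03 near 150, with Acta2 called higher. The part of vessel cells in the Rbpms values was not tested.

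Slc17a6, the vesicular glutamate transporter of ganglion cells, read 2957 and 3033 in labelled knockout arrays and 1949 and 2070 in wildtype arrays near 500, but 443 against 559 near 150. The groups were apart in opposite directions, with 0.58 near 500 and -0.33 near 150, and the difference between the sets of arrays passed its test (0.91, limma adjusted p = 0.0173). Its second probe set had 0.05 near 500 and -0.13 near 150, and its difference between the sets of arrays did not pass (limma adjusted p = 0.605). Pou4f1, the POU factor also named Brn3a, differed between the sets of arrays in the reverse direction. It read 379 and 295 in labelled knockout arrays and 573 and 581 in wildtype arrays near 500, but 142 against 79.1 near 150, a difference between the sets of arrays of -1.63 (limma adjusted p = 0.0401). Its second probe set ran the other way in both sets, with 0.26 near 500 and -0.64 near 150. Of the 33 tested markers these 2 and Tfap2c differed between the sets of arrays, where 1.17% of all genes and 1.19% of probe sets did.

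The other ganglion cell factors did not pass either. Ebf3, a factor of ganglion and amacrine cells, read 1082 and 901 in labelled knockout arrays and 1158 and 1129 in wildtype arrays near 500, and 244 against 250 near 150. Its groups were apart by little, with -0.15 ± 0.11. The second probe set of Ebf3 was also lower at both scales, while its dimmest had overlapping groups near 500 and 0.30 near 150. Isl2, a LIM factor of a ganglion cell subset, had 0.02 ± 0.21, with -0.22 near 500 and 0.48 near 150. Pou4f3, also named Brn3c, was under the filter and read 145 and 129 in labelled knockout arrays and 4.57 and 89.8 in wildtype arrays near 500, and 33.0 against 22.9 near 150. Its change of 2.02 ± 0.98 rests on the wildtype array at 4.57 (adjusted p = 0.395 in the limma fit of all probe sets).

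The genes of growing and stressed axons and the photopigment gene did not pass either. Gap43 and Stmn2, which serve axon growth, had 0.10 ± 0.15 and 0.07 ± 0.10, each higher near 500 (0.32 and 0.22) and lower near 150 (-0.33 and -0.24). Sncg, the γ-synuclein gene of ganglion cells, had 0.14 ± 0.093. Opn4, which encodes melanopsin of intrinsically photosensitive ganglion cells, read 200 and 164 in labelled knockout arrays and 206 and 191 in wildtype arrays near 500, and 58.3 against 79.7 near 150, with -0.23 ± 0.21 and overlapping groups near 500.

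Where a gene had more than 1 tested probe set, these mostly shared a sign in the change over all 6 arrays. Of 17 such markers, 11 had all probe sets on one side of 0 and 6 had both signs, and in 0 of them did probe sets differ in sign beyond their standard errors. Within a set of arrays they could still differ. Pou4f1 counts among the 11, though its probe sets had opposite signs near 500 (-0.79 and 0.26) and near 150 (0.84 and -0.64). Dab1 does too, with -0.60 to 0.12 near 500. The comparison of the arrays near 500 alone called 7 of 33 markers (21.2%), where 13.7% of all tested probe sets and 14.3% of genes were called. These were Tfap2a, Prox1, Pou4f1 and Nefm as lower and Tfap2c, Rbpms and Slc17a6 as higher in labelled knockout arrays. Near 150 only Tfap2a, Nefm and Prox1 of these 7 had the same sign, and for Prox1 the value was -0.02.

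Wider lists of the same 3 classes held 1 gene that passed. Of 20 other amacrine genes measured, none passed (19 tested, median -0.08), and of 11 other horizontal cell genes none passed (9 tested, median -0.06), with 2 at an unadjusted p under 0.05 in each list in limma. Near 500 the other horizontal cell genes had a median of -0.01, where the 5 horizontal cell markers had -0.49. Of 28 other ganglion cell genes 1 fell and none rose (27 tested, median 0.01). The gene that fell was Map1b, a microtubule-associated protein gene of neurons and their axons, with 1393 and 1560 in labelled knockout arrays and 2328 and 2244 in wildtype arrays near 500, and 982 against 1356 near 150. Its groups were apart at both scales, with a log2 fold change of -0.58 ± 0.085 (limma adjusted p = 0.0115). Tcf4, a helix-loop-helix factor of amacrine cells among other neurons, had -0.33 ± 0.072 (limma adjusted p = 0.0514) and did not pass. The wider lists share Isl1 and Ebf1.

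Genes of some other cell types in the sample passed the test. The lens list had 14 of 16 tested genes called higher, and the brightest probe sets of its genes summed to 66288 and 57517 in labelled knockout arrays and 4104 and 3066 in wildtype arrays near 500, and to 46049 against 7904 near 150. Of the list of pigment epithelium 4 of 9 tested genes rose, and of 13 rod genes 2 fell, Guca1a and Guca1b, with a median of -0.37 near 500 and -0.08 near 150. No tested gene of the cone, bipolar, Müller glia, microglia or astrocyte and optic nerve lists passed in limma (1, 6, 3, 1 and 0 at an unadjusted p under 0.05). Prox1 and Pax6 are also expressed in lens. The summed signals of the amacrine markers were 41107 and 42322 in labelled knockout arrays and 40614 and 41188 in wildtype arrays near 500, and 9568 against 10169 near 150. Those of the ganglion cell markers were 32186 and 34318 in labelled knockout arrays and 34653 and 34817 in wildtype arrays near 500, and 5540 against 6207 near 150. For horizontal cell markers the sums were 6253 and 6605 in labelled knockout arrays and 6401 and 6708 in wildtype arrays near 500. Near 150 they were 1240 against 1312, and Calb1 made up most of each sum. The part of lens, pigment and rod cells in the marker values was not tested.

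**Figure D4:**
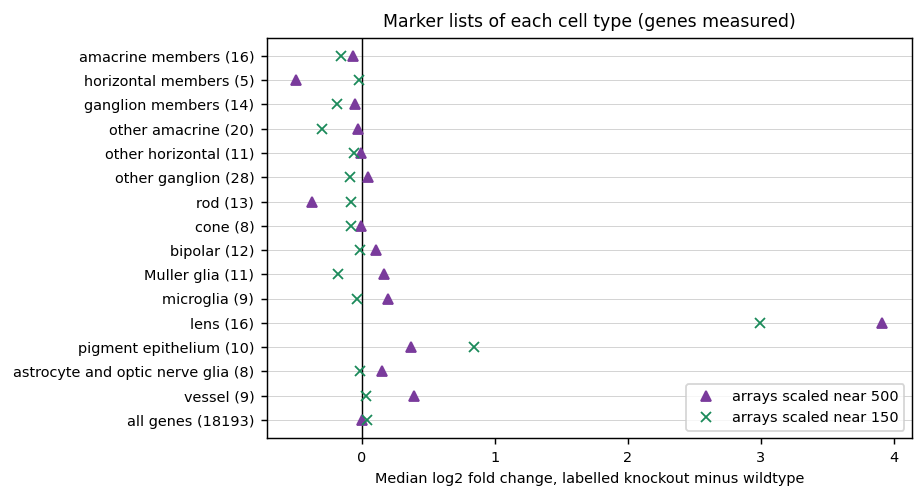
Median log2 fold change, labelled knockout minus wildtype, of the marker lists of each cell type, with the number of genes measured in brackets, triangles for arrays scaled near 500 and crosses for those near 150. Amacrine and ganglion cell lists lie between -0.30 and 0.05, with all genes at -0.00 near 500 and 0.04 near 150. The horizontal cell markers lie at -0.49 near 500 and -0.02 near 150, the other horizontal cell genes at -0.01 and -0.06, and the lens list lies at 3.92 and 2.99.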

How the data were processed

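RNA from 6 pools of mouse retina was measured on short-oligonucleotide arrays, 3 labelled knockout and 3 wildtype, grouped by sample title. The deposited values are intensities on a linear scale, 1 per probe set and array, made by the authors with GCOS 1.4 and MAS5 per the submitters' processing notes, which give no role or order for them. Of 45101 probe sets, 64 controls were left out. The mean after trimming 2% at either end was 500 or 150, which defined the 2 scaling batches, each with both groups.

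No normalization was added before log2. Probe sets with a mean log2 signal at or above the 40th percentile (27022) were tested in limma 3.58.1 under R 4.3.3 (two-sided moderated test, variance trend on), blocked on batch, with Benjamini-Hochberg adjustment at 0.05. The difference between batches was tested as an interaction. The fit was also run on simulated data with independent noise and the same change in both batches. That run does not cover changes that differ between batches. Names came from a platform annotation table, in which 34945 probe sets had 1 symbol, 932 several and 9160 none. Arrays carry no read depth, and their number limits the precision. Array values are given for the 12 markers of smallest p, the brightest of each role and any called. Tfap2c, Pou4f1, Pou4f3, Th and Opn4 were given them after their values were seen. The members and lists were chosen with earlier results of these data known.

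Same-numbered samples deviated together from their group means (correlations 0.57, 0.67 and 0.843), all over 0.1, the limit used for pairing. These deviations hold the difference between the 2 scales, so the correlations cannot tell pairing by number from the scaling batch. Between numbers 1 and 2 the correlations were 0.607 and 0.627.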

Additional observations from a re-analysis of the deposited data

Results flagged for a closer look

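For 3 markers the change in the arrays scaled near 500 differed from that in the arrays scaled near 150 by a test of the difference itself. The difference (near 500 minus near 150, log2) was 1.55 for Tfap2c (0.64 and -0.91), -1.63 for Pou4f1 (-0.79 and 0.84) and 0.91 for Slc17a6 (0.58 and -0.33), with limma adjusted p of 0.0142, 0.0401 and 0.0173. Among all genes 1.17% differed so. Other probe sets of the 3 genes did not pass this test, with adjusted p of 0.781 and 0.316 for Tfap2c, 0.238 for Pou4f1 and 0.605 for Slc17a6. The arrays near 150 are 1 per group, so a single array decides each difference.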

How the results depend on the processing

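No marker passed under most alternatives. Tfap2a alone passed with the filter at the 60th percentile and with probe sets of shared-transcript suffix left out (1 marker each), and 7 passed in the arrays near 500 alone. Leaving out 1 replicate gave 0 to 7 markers called, 7 without replicate 3 of either group, when the contrast rests on the arrays near 500. These 7 included Onecut2 (lowest limma adjusted p = 0.0407), which did not pass in the arrays near 500 alone (0.0504). In all, 8 markers passed under at least 1 alternative. With the replicate number as a block 0 markers were called, and the lowest adjusted p was 0.102 for Tfap2a, in limma. Of 355 values of single markers under 11 settings, 335 kept sign and side of the threshold, 9 came to pass and 11 turned sign. Leaving out the batch, the variance trend or the filter, blocking on replicate number or raising the filter leaves each log2 fold change as it was. Under those settings a value could change side of the threshold but not sign, so the 335 do not measure stability of sign.

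Of all probe sets, 609 were called, against 0 without the batch, 200 with the replicate block, 284 with arrays centred on their median, 405 without a filter, 955 with the filter at the 60th percentile, 401 for gene means, 3710 in the arrays near 500 alone, 19 without the variance trend and 77 to 3710 leaving out 1 replicate. The cause of these shifts was not tested. Centring put the median at 0.032 for all markers, 0.074 for amacrine and 0.032 for ganglion cell markers, and without the suffixed probe sets the ganglion cell median was -0.13. With the 60th percentile filter, which drops dim markers, the horizontal cell median was -0.04. Leaving out 1 replicate gave medians of -0.10 to -0.04 for all markers, -0.07 to -0.03 for amacrine, -0.49 to -0.27 for horizontal and -0.14 to 0.015 for ganglion cell markers.

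Sign turned with centring for Gad1 (0.074), Pax6 (0.022), Lhx1 (0.060) and Nefh (0.032), with gene means for Gad1 (0.0079) and Calb1 (-0.024), with a pseudocount of 16 for Isl2 (-0.0038), and in the arrays near 500 alone for Slc18a3 (-0.18), Lhx1 (0.12), Isl2 (-0.22) and Nefh (0.028). Leaving out 1 replicate gave -0.065 to 0.012 for Gad1, -0.017 to 0.20 for Slc32a1, -0.085 to 0.64 for Tfap2c, -0.18 to 0.15 for Slc18a3, -0.15 to 0.12 for Slc5a7, -0.29 to 0.13 for Lhx1, -0.79 to 0.015 for Pou4f1, -0.22 to 0.11 for Isl2, -0.20 to 0.028 for Nefh and -0.0075 to 0.32 for Gap43. With 3 arrays per group on 2 scales and no detection calls in the table used, low signals such as those of Onecut1 and Chat carry wide errors.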
